A study of Mus musculus with 15 samples.

Results

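The genes described here are 42 mouse genes of the extracellular matrix and its turnover: collagens, matrix glycoproteins, small proteoglycans, crosslinking enzymes, metalloproteases with their inhibitors, the plasminogen activation system and a pair of contractile proteins. They were chosen by gene name, from a list drawn up with earlier results of these data known. All 42 had a row in both deposited count tables, among 53689 named gene records in the first table (set 1) and 53618 in the second (set 2). RNA was sequenced from cultured small cell lung cancer cells taken from mouse tissue. In set 1, 3 lung lines with Rb1, Trp53 and STAT3 deleted and MYC present (Rb1-/-:Trp53-/-:STAT3-/-:MYC, called RPMS; lines CMV_228, CMV_231 and CMV_252) were set against 4 lung lines that kept STAT3 (Rb1-/-:Trp53-/-:MYC, called RPM; lines CMV_426, CMV_427, CMV_428 and CMV_429). In set 2, 4 RPMS lines from the liver (CMV_273, CMV_341, CMV_343 and CMV_344) were set against 4 RPMS lines from the lung (CMV_228, CMV_231, CMV_232 and CMV_252). All 15 libraries therefore share the loss of Rb1 and Trp53 and the MYC allele, and set 2 holds no line with STAT3. The labels of all 15 libraries also carry the letters CMV, used here as part of the line name. They do not say which animal a line came from, so the p-values measure the spread between these lines.

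The extracellular matrix is the network of collagen fibres, glycoproteins and proteoglycans around cells, made in most tissues chiefly by fibroblasts and, for the basement membrane, by epithelial and endothelial cells. Lysyl oxidases crosslink its fibres, matrix metalloproteases cut them, and the TIMP proteins inhibit those proteases, while the plasminogen activators switch on the protease plasmin at the cell surface. STAT3 is a transcription factor activated by cytokines such as interleukin-6, and macrophages are a known source of osteopontin, fibronectin and metalloelastase in the lung. Small cell lung cancer is a neuroendocrine tumour.

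Levels are given as CPM, read counts scaled to a common library size. Set 1 libraries held 25344949 to 31345631 counts and set 2 libraries 9453715 to 18451248, so that 3 counts, the limit used for a gene with no counts, equal 0.0907 to 0.120 CPM in set 1 and 0.160 to 0.292 CPM in set 2. Stat3 itself was at 14.4 ± 5.84 CPM in RPMS and 186 ± 21.1 CPM in RPM lung lines (SD, n = 3 and 4; edgeR adjusted p = 0.00176). The groups of set 1 also differed in markers of cell type. Summed over 12 neuroendocrine markers, levels were 1669 to 4711 CPM in RPMS and 15.7 to 74.2 CPM in RPM libraries. Summed over 14 macrophage markers, levels were 6.14 to 125 CPM in RPMS and 3186 to 14534 CPM in RPM libraries, and 12 of the 13 tested were lower in RPMS, with Adgre1, C1qa, C1qb, C1qc, Itgam, Marco, Msr1 and Ptprc without a count there. The highest RPMS sum, in CMV_252, was almost all Lyz2, at 124 CPM. The RPM libraries thus carried the defining transcripts of macrophages and few of the tumour type named in their labels. Summed fibroblast and stellate cell markers were at 21.0 to 68.7 CPM in RPMS and 34.2 to 231.2 CPM in RPM libraries, of which S100a4 made up 166 CPM in CMV_426 and 174 CPM in CMV_428, and Dpt and Tcf21 had no count in either group. Alveolar and airway markers were highest in RPM lines CMV_428 (763 CPM) and CMV_429 (1224 CPM), against 14.8 to 36.8 CPM in RPMS and 33.9 and 34.8 CPM in the other RPM lines. In bulk RNA, fewer cells of a type and less RNA per cell cannot be told apart, and the part of the cell types in the matrix differences was not tested. In set 2, line CMV_252 stood apart: its neuroendocrine sum was 177 CPM, against 3757 to 6265 CPM in the other 7 libraries. Summed hepatocyte markers in set 2 were at 0.481 to 3.96 CPM in liver lines and 1.15 to 3.66 CPM in lung lines.

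Of the 42 genes, 38 had enough counts to be tested between RPMS and RPM lung lines. At an edgeR adjusted p of at most 0.05, 23 of the 38 (60.5%) were lower in RPMS and 2 (5.26%) were higher. Over all 17654 genes tested, 15.7% were lower and 14.9% were higher, 30.6% in all. Because the list was chosen with earlier results of these data known, its shares are a description and not a test of the list. The groups did not overlap for 21 of the 38 in the lower direction and for 4 in the higher, against 21.9% and 21.2% of all genes. The median log2 fold change was -5.69 over the 38 genes, or -5.65 with genes without RPMS counts set at their bound, and -0.01 over all genes. In 22 of the 42, every RPMS library was below 1 CPM, and 10 genes had no count in any of the 3 RPMS libraries. Each RPM library held 17 to 25 of the genes at 10 CPM or more, against 7 to 9 in each RPMS library. Calls of 10 genes held under all 14 alternative settings tried, with a largest adjusted p of 0.0407: Fn1, Sparc, Fbln2, Spp1, Lox, Mmp12, Mmp14, Mmp19, Timp2 and Plau. The other 15 calls were lost under at least one setting, and the left-out lines that ended a call are named with each gene. Col1a1, Col3a1, Col6a1 and Col6a2 were tested in only 4 of the 7 fits that left out 1 library. For these genes, leaving out some RPM lines gave no result, because too few counts remained for a test. With limma-voom the adjusted p was 0.305 for Col1a1, 0.0750 for Col3a1, 0.245 for Col6a1, 0.103 for Col6a2, 0.0995 for Col12a1, 0.0547 for Mgp, 0.0506 for Tnc, 0.0733 for Dcn and 0.170 for Timp3. Without a count filter edgeR gave an adjusted p of 0.0646 for Col1a1, 0.0673 for Col3a1, 0.0538 for Col6a1, 0.0640 for Eln, 0.0546 for Timp3 and 0.0587 for Plaur, and the robust fit gave 0.0514 for Col3a1.

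**Figure D1:**
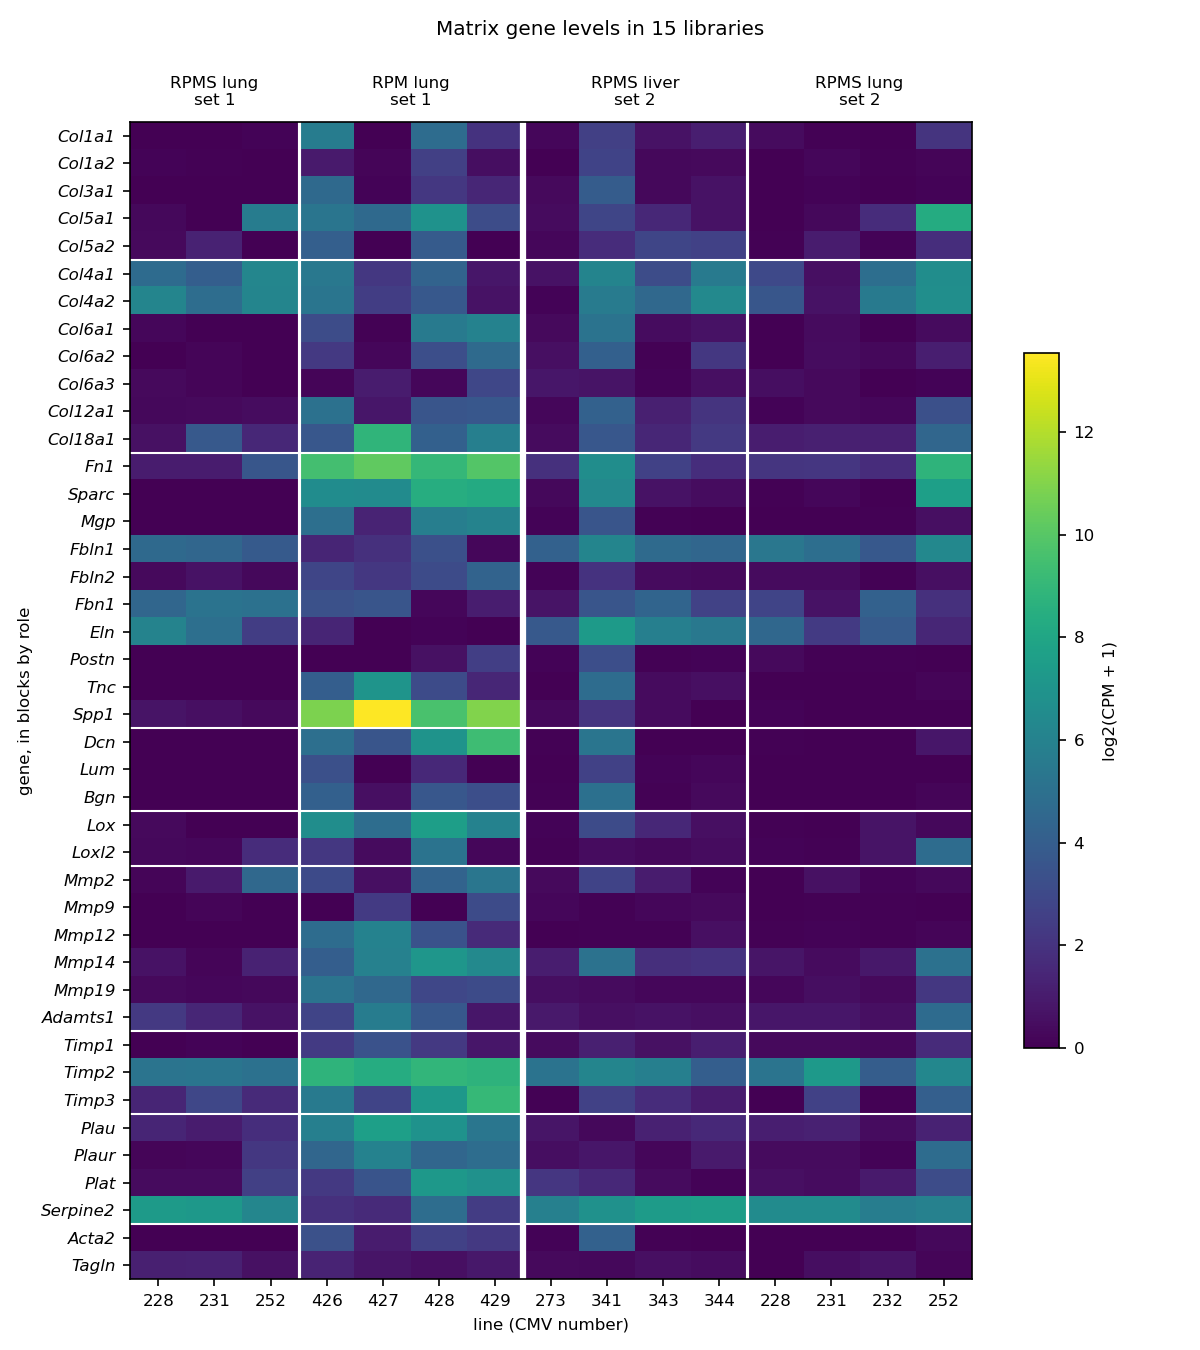
Level of each of the 42 genes, as log2(CPM + 1), in each of the 15 libraries, with RPMS lung left of RPM lung in set 1 and RPMS liver left of RPMS lung in set 2, and rows in blocks by role. The rows of Spp1, Fn1 and Timp2 are brighter in each of the 4 RPM libraries than in any other library, and in set 2 the lines CMV_341 and CMV_252 hold most of the bright cells.

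Among the fibrillar collagens, which form the tensile fibres of connective tissue, 2 of 5 fell in RPMS and 3 did not pass. Col1a1, a chain of type I collagen, was at 0, 0 and 0.0907 CPM in RPMS lines CMV_228, CMV_231 and CMV_252, against 50.9, 0, 26.5 and 2.97 CPM in RPM lines CMV_426, CMV_427, CMV_428 and CMV_429. The groups overlap, since line CMV_427 also had no count. With 3 counts in RPMS, the RPMS to RPM ratio was 0.00155 (95% counting interval 0.00032 to 0.00455; edgeR adjusted p = 0.0427). Col3a1, the type III collagen of elastic tissues, had no count in RPMS, against 24.1, 0.112, 3.57 and 1.70 CPM in RPM, at least 79.6-fold lower (edgeR adjusted p = 0.0467). Here CMV_426 was far above the other RPM lines. Both calls rested on few libraries: leaving out RPMS line CMV_228, CMV_231 or CMV_252 gave edgeR adjusted p values of 0.135, 0.132 and 0.0975 for Col1a1 and 0.103, 0.100 and 0.0755 for Col3a1, within ranges of 0.000102 to 0.305 and 3.10e-06 to 0.103 over the 10 settings that tested them. The regulatory type V chain Col5a1 was at 0.246, 0 and 49.6 CPM in RPMS, against 37.0, 23.95, 118 and 8.01 CPM in RPM (log2 fold change -1.49, SE 2.02, edgeR adjusted p = 0.613). Line CMV_252 alone put the groups into overlap, and without it Col5a1 passed (adjusted p = 0.0209; range over the settings 0.0209 to 0.894). Col5a2, its partner chain, was at 0 to 1.46 CPM in RPMS and reached 16.2 and 13.6 CPM in CMV_426 and CMV_428, with no count in CMV_427 and CMV_429 (edgeR adjusted p = 0.318). Col1a2, the second chain of type I collagen, stayed at or below 4.89 CPM in every set 1 library and did not pass (edgeR adjusted p = 0.0534).

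The network-forming and basement membrane collagens split by type. Col6a1 and Col6a2, chains of the beaded filament collagen VI, and Col12a1, a collagen that decorates fibril surfaces, fell. Col6a1 was at 0.184, 0 and 0 CPM in RPMS, against 7.72, 0.0749, 45.7 and 61.9 CPM in RPM (log2 fold change -8.77, SE 2.47, edgeR adjusted p = 0.0353). Col6a2 was at 0, 0.127 and 0 CPM in RPMS, against 3.68, 0.187, 8.54 and 24.9 CPM in RPM (log2 fold change -7.66, SE 2.08, edgeR adjusted p = 0.0316). For both chains CMV_429 was highest and CMV_427 close to the RPMS lines, so that the groups overlap for Col6a1 and are narrowly apart for Col6a2. Col12a1 was at 0.215, 0.254 and 0.363 CPM in RPMS, against 31.6, 0.749, 10.7 and 11.7 CPM in RPM, without overlap (log2 fold change -5.60, SE 1.25, edgeR adjusted p = 0.0164). Leaving out CMV_228, CMV_231 or CMV_252 gave an edgeR adjusted p of 0.0965, 0.113 and 0.0789 for Col6a1 and 0.105, 0.0724 and 0.0694 for Col6a2, and without CMV_228 or CMV_231 it was 0.0695 and 0.0671 for Col12a1 (ranges over the settings 9.91e-06 to 0.245, 2.17e-05 to 0.105 and 3.55e-07 to 0.0995). Without CMV_428 and CMV_429 together, Col12a1 was at 0.0590. Col6a1 and Col6a2 were tested in only 4 of the 7 fits without 1 library, so leaving out some RPM lines gave no result for them. Col4a1 and Col4a2, the chains of the main basement membrane collagen, went with the others neither in direction nor in call. Col4a1 was at 25.6, 15.3 and 74.5 CPM in RPMS, against 41.97, 3.52, 19.0 and 0.753 CPM in RPM (log2 fold change 1.24, SE 1.20, edgeR adjusted p = 0.474). Col4a2 was at 71.2, 27.5 and 69.7 CPM in RPMS, against 36.8, 4.45, 12.3 and 0.555 CPM in RPM (log2 fold change 2.05, SE 1.13, edgeR adjusted p = 0.213). These genes lie head to head on opposite strands and overlap at their starts, and in both the groups overlap, through CMV_426 for Col4a2 and through CMV_426 and CMV_428 for Col4a1. Col18a1, whose product carries the endostatin fragment, was at 0.522, 12.9 and 1.81 CPM in RPMS, against 11.6, 467, 17 and 56.0 CPM in RPM, with CMV_427 far above the rest (log2 fold change -4.76, SE 1.85, edgeR adjusted p = 0.0933; 0.00208 with DESeq2, the lowest over the settings, which reached 0.213).

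The glycoproteins held the members with the highest levels. Of 10, 9 were tested: 6 fell in RPMS (Fn1, Sparc, Mgp, Fbln2, Tnc and Spp1), Eln rose, and Fbln1 and Fbn1 did not pass. The proximal promoters of Spp1 and Sparc are shown because both are among the 4 changed members of highest level that have a RefSeq promoter window. Each is the 250 bases before a RefSeq start on GRCm38.p6. Capitals mark a TATAAA match in Spp1, and none of the 3 motifs given further on is in the Sparc stretch.
Spp1, chr5:104434861-104435110, plus strand: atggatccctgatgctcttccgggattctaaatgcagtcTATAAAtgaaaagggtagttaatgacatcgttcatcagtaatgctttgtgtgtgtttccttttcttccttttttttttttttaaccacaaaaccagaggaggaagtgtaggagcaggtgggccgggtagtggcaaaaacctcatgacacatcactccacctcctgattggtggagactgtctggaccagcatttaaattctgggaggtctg
Sparc, chr11:55420081-55420330, minus strand: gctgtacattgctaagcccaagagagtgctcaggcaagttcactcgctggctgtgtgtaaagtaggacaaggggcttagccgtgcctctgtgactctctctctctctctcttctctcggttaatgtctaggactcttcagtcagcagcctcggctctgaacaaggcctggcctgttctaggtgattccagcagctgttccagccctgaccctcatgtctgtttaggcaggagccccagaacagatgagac
Spp1 encodes osteopontin, a secreted phosphoprotein that binds integrins and is made by macrophages, bone cells and many tumours. The gene lies on the plus strand of chromosome 5 (104435118 to 104441050, GRCm38). It was at 0.614, 0.476 and 0.272 CPM in RPMS lines CMV_228, CMV_231 and CMV_252, against 1895, 11872, 799 and 2040 CPM in RPM lines CMV_426 to CMV_429. Every RPM library was above every RPMS library, and CMV_427 was above the other RPM lines (log2 fold change -13.15, SE 1.56, edgeR adjusted p = 0.00268). Sparc (chromosome 11, 55394500 to 55423183, minus strand) encodes a collagen-binding protein of remodelling tissue. It had no count in the RPMS libraries, against 94.1, 93.0, 346 and 312 CPM in RPM, at least 2280-fold lower (edgeR adjusted p = 0.00300), with CMV_428 and CMV_429 above the other RPM lines. Fn1 (chromosome 1, 71585520 to 71653200, minus strand), fibronectin, the glycoprotein that links integrins to the matrix, was at 1.04, 1.05 and 11.4 CPM in RPMS, against 725, 1212, 525 and 947 CPM in RPM (log2 fold change -7.57, SE 1.20, edgeR adjusted p = 0.00563). The highest RPMS value, in CMV_252, was far under the lowest RPM value.

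Tnc, tenascin C, a glycoprotein of wounds and tumour stroma, had no count in RPMS, against 15.2, 129, 7.66 and 1.74 CPM in RPM, at least 415-fold lower (edgeR adjusted p = 0.0296). Mgp, an inhibitor of calcification, had no count in RPMS, against 29.9, 1.57, 53.8 and 64.7 CPM in RPM, at least 405-fold lower (edgeR adjusted p = 0.0137). The high lines differed between them: CMV_427 for Tnc, and CMV_428 and CMV_429 for Mgp. Fbln2, a fibulin of basement membranes and elastic fibres, was at 0.276, 0.571 and 0.242 CPM in RPMS, against 6.07, 3.56, 7.62 and 19.1 CPM in RPM, without overlap (log2 fold change -4.63, SE 0.78, edgeR adjusted p = 0.00684). Without RPM line CMV_426, or RPMS lines CMV_228, CMV_231 or CMV_252, Tnc had adjusted p values of 0.0516, 0.0713, 0.0698 and 0.0517 (range over the settings 2.51e-10 to 0.0713). Without CMV_428 and CMV_429 together, Mgp was at 0.0669 (range 5.87e-13 to 0.0669).

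Eln was the glycoprotein gene that rose, and Fbn1 and Fbln1 did not pass. Eln encodes elastin, the protein of elastic fibres, and was at 66.1, 29.6 and 4.47 CPM in RPMS, against 1.65, 0, 0.0802 and 0 CPM in RPM. All RPMS libraries were above all RPM libraries, with CMV_252 the lowest RPMS line (log2 fold change 6.26, SE 1.85, edgeR adjusted p = 0.0417). Fbn1, fibrillin 1, the scaffold of elastic fibres, was at 20.8, 35.2 and 31.7 CPM in RPMS, against 9.17, 10.8, 0.200 and 1.11 CPM in RPM (log2 fold change 2.46, SE 1.13, edgeR adjusted p = 0.144). Fbln1, another fibulin, was at 23.3, 20.9 and 13.1 CPM in RPMS, against 1.61, 2.66, 8.98 and 0.159 CPM in RPM (log2 fold change 2.51, SE 1.05, edgeR adjusted p = 0.113). For both genes the groups do not overlap, although neither passed over all genes. With all libraries kept, Fbln1 passed with DESeq2 (adjusted p = 0.0341) and limma-voom (0.0293), and Fbn1 passed with limma-voom (0.0352). Leaving out CMV_428 and CMV_429 together, the 2 RPM lines with alveolar transcripts, brought Fbn1 to 0.0450 and Fbln1 to 0.0209 in edgeR. Leaving out CMV_428 alone brought Fbln1 to 0.0372. Ranges over the settings were 0.0352 to 0.274 for Fbn1 and 0.0209 to 0.239 for Fbln1. Eln lost its call without RPM line CMV_427, CMV_428 or CMV_429 (0.0711, 0.0848 and 0.0691), without RPMS line CMV_228 or CMV_231 (0.132 and 0.0931), and without CMV_428 and CMV_429 together (0.148), within 0.00182 to 0.148 over the settings.

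The small leucine-rich proteoglycans bind collagen fibrils and set their diameter, and in RPMS none had a count. Dcn, decorin, was at 29.9, 10.9, 123 and 634 CPM in RPM lines CMV_426 to CMV_429, so that RPMS was at least 2151-fold lower (edgeR adjusted p = 0.0215). Bgn, biglycan, was at 17.01, 0.449, 11.7 and 8.48 CPM in RPM, at least 102-fold lower in RPMS (edgeR adjusted p = 0.0161). Lum, lumican, was at 8.86, 0, 1.92 and 0 CPM in RPM and had too few counts to be tested. Dcn was highest in CMV_429 and Bgn and Lum in CMV_426. The Dcn call was lost without RPMS line CMV_228 or CMV_231 (edgeR adjusted p = 0.0549 and 0.0532; range over the settings 6.69e-15 to 0.0733), and Bgn without CMV_428 and CMV_429 together (0.0921; range 3.24e-09 to 0.0921). Line CMV_429, highest for Dcn, was also the highest RPM line for Col6a1, Col6a2, Mgp, Fbln2, Mmp2 and Timp3, while Bgn was lower in it than in CMV_426 and CMV_428 and Lum had no count. Its 14 fibroblast and stellate cell markers summed to 143 CPM, against 34.2 to 231.2 CPM over the RPM lines. In CMV_429, S100a4 was at 109.6, Pdgfrb at 13.7, Pdgfra at 7.21, Hgf at 4.76, Meox1 at 4.64 and Pi16 at 2.34 CPM. Colec11 was at 0.476, Fap at 0.198 and Reln at 0.0396 CPM in it, with no count of Thy1, Dpt, Tcf21, Lrat or Cygb. The macrophage marker sum of CMV_429 was 4729 CPM, and the part of either cell type in these levels was not tested.

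Of the crosslinking enzymes, Lox fell and Loxl2 did not pass. Lox, lysyl oxidase, was at 0.276, 0 and 0 CPM in RPMS, against 96.6, 27.2, 192 and 62.5 CPM in RPM, without overlap (log2 fold change -9.93, SE 1.501, edgeR adjusted p = 0.00489). Loxl2, a relative that acts on collagen IV, was at 0.215, 0.190 and 2.33 CPM in RPMS, against 3.61, 0.299, 35.0 and 0.159 CPM in RPM, where only CMV_428 was high (log2 fold change -3.41, SE 2.05, edgeR adjusted p = 0.250).

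**Figure D2:**
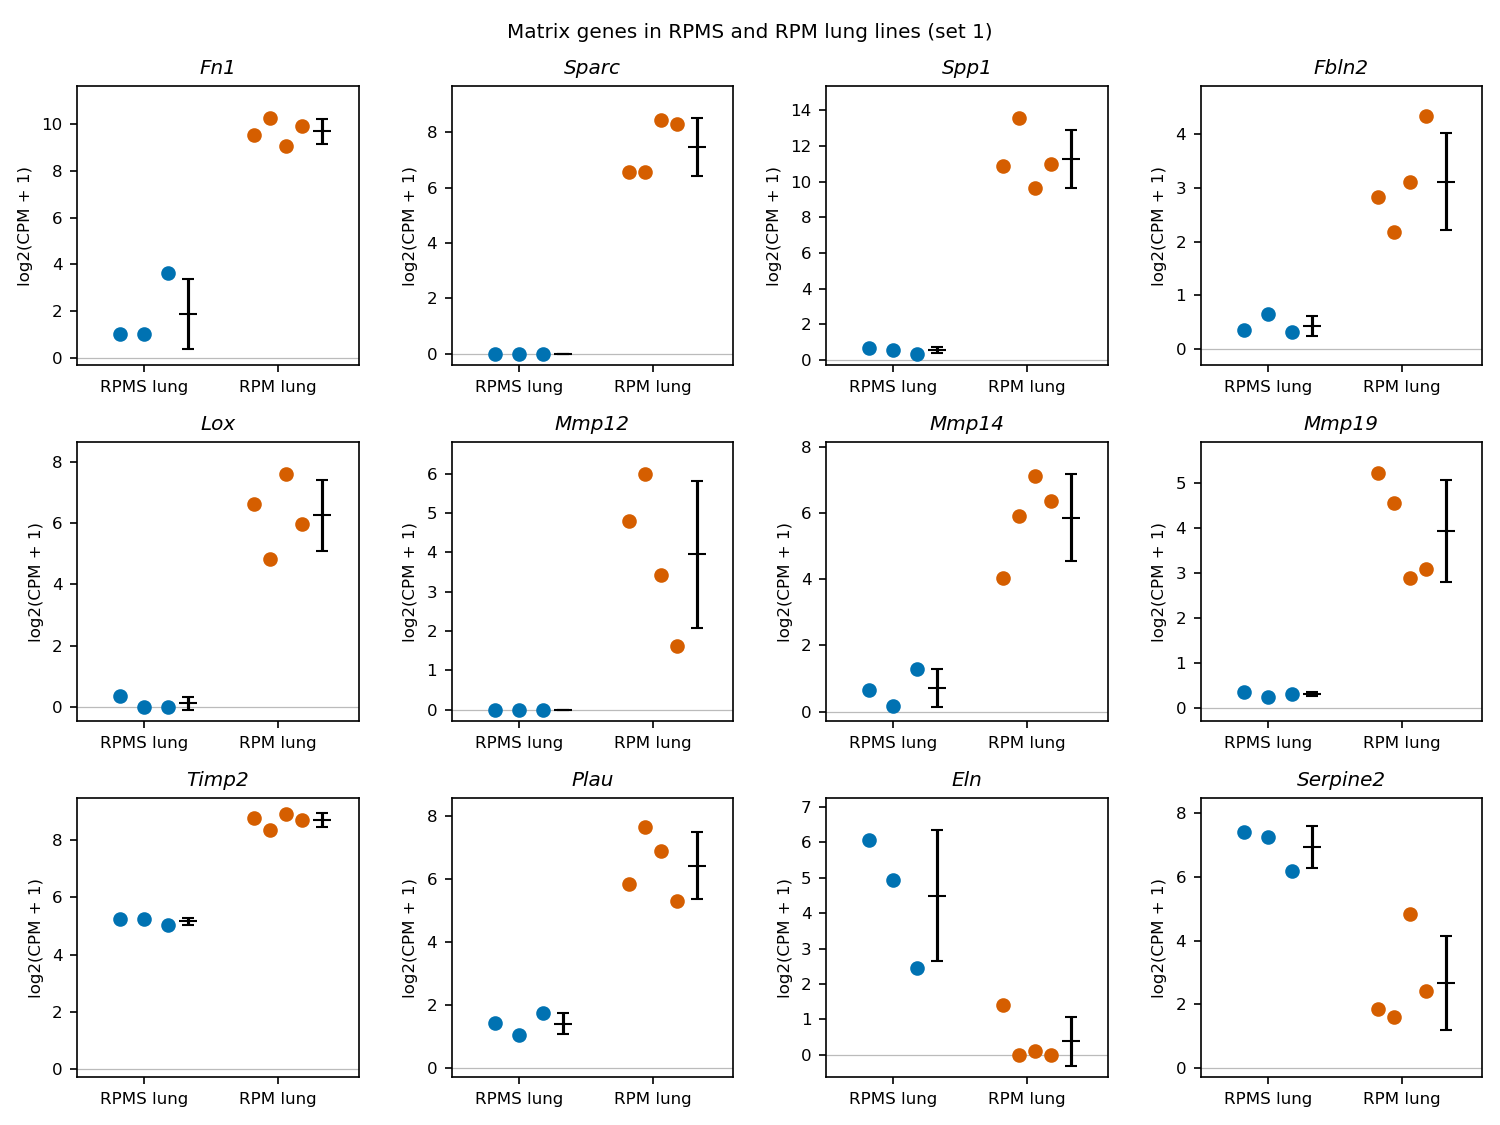
Levels as log2(CPM + 1) of 12 members in the 3 RPMS and 4 RPM lung lines of set 1: the 10 whose call held under every setting tried and the 2 that were higher in RPMS. Points are lines in rising order of line number, and bars give mean ± SD; the groups do not overlap in any panel, with Eln and Serpine2 higher in RPMS and the other 10 lower.

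The metalloproteases that fell are secreted or bound to the cell membrane. Mmp14, the membrane-type protease that activates pro-MMP2 and cuts collagen at the cell surface, was at 0.584, 0.127 and 1.45 CPM in RPMS, against 15.4, 59.7, 139 and 82.1 CPM in RPM (log2 fold change -6.67, SE 1.16, edgeR adjusted p = 0.00753). Mmp19, a secreted protease of basement membrane components, was at 0.276, 0.190 and 0.242 CPM in RPMS, against 36.5, 22.4, 6.46 and 7.45 CPM in RPM (log2 fold change -6.24, SE 0.87, edgeR adjusted p = 0.00383). Mmp12, macrophage metalloelastase, had no count in RPMS, against 26.5, 61.9, 9.62 and 2.06 CPM in RPM, at least 270.1-fold lower (edgeR adjusted p = 0.0147). The groups do not overlap for any of these 3, and the RPM lines ranked differently: CMV_428 led for Mmp14, CMV_426 for Mmp19 and CMV_427 for Mmp12. Mmp2, gelatinase A, was at 0.123, 0.952 and 22.7 CPM in RPMS, against 7.21, 0.487, 18.5 and 39.3 CPM in RPM, and the groups overlap through CMV_252 and CMV_427 (log2 fold change -1.04, SE 1.75, edgeR adjusted p = 0.687). Adamts1, a protease of versican and aggrecan, was at 3.69, 1.71 and 0.574 CPM in RPMS, against 5.92, 50.9, 12.0 and 0.793 CPM in RPM (log2 fold change -3.13, SE 1.38, edgeR adjusted p = 0.131; 0.0221 with DESeq2, the lowest over the settings, which reached 0.320). Mmp9, gelatinase B, was found mainly in CMV_427 and CMV_429, at 3.89 and 7.57 CPM, and was not tested.

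All 3 tissue inhibitors of metalloproteases fell. The promoters of Timp2 and Timp3 follow, as the others of those 4 members. Both are the 250 bases before the start, and none of the 3 motifs searched below is in them.
Timp2, chr11:118355412-118355661, minus strand: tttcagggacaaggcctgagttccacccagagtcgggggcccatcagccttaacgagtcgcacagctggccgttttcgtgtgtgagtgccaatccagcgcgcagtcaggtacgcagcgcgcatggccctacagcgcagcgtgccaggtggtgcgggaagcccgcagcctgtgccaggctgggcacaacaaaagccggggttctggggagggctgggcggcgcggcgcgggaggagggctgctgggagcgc
Timp3, chr10:86300162-86300411, plus strand: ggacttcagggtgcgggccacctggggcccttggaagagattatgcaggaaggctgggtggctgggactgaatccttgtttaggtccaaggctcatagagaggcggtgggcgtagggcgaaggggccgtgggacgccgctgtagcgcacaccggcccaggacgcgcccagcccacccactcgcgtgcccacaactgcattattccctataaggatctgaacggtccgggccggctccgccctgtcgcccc
Timp2 (chromosome 11, 118301069 to 118355740, minus strand), which inhibits MMP2 and also takes part in its activation by MMP14, was at 36.6, 37.0 and 31.5 CPM in RPMS, against 443, 326, 484 and 422 CPM in RPM. Both groups were tight and far apart (log2 fold change -3.58, SE 0.21, edgeR adjusted p = 0.000916), and Timp2 kept one of the highest levels of the RPMS lines. Timp3, the inhibitor that binds the matrix, was at 1.63, 6.38 and 2.02 CPM in RPMS, against 44.2, 5.80, 150 and 529 CPM in RPM (log2 fold change -5.77, SE 1.64, edgeR adjusted p = 0.0362). Line CMV_427 lay among the RPMS lines, and CMV_429 was above the other RPM lines. Timp1, the inducible soluble inhibitor, was at 0, 0.0952 and 0 CPM in RPMS, against 3.84, 9.51, 3.81 and 0.793 CPM in RPM. With 3 counts in RPMS, its ratio to RPM was 0.00677 (95% counting interval 0.00139 to 0.0199; edgeR adjusted p = 0.0136), and without RPMS line CMV_228 the adjusted p was 0.0538 (range over the settings 9.31e-07 to 0.0538). Timp3 lost its call without RPM line CMV_428 or CMV_429 (0.0591 and 0.0541), without RPMS line CMV_228, CMV_231 or CMV_252 (0.123, 0.0815 and 0.0885) and without CMV_428 and CMV_429 together (0.120), within 8.03e-06 to 0.170 over the settings. Timp1 and Timp3 each overlap a neuronal synapsin gene on the opposite strand, Syn1 and Syn3, and the strand setting of the counting is not given in the sources used here.

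In the plasminogen system the activator Plau and its receptor fell, while an inhibitor rose. Plau, urokinase, was at 1.69, 1.08 and 2.36 CPM in RPMS, against 56.8, 201 and 119 CPM in RPM lines CMV_426, CMV_427 and CMV_428 and 38.4 CPM in CMV_429 (log2 fold change -5.92, SE 0.77, edgeR adjusted p = 0.00327). Plaur, the receptor that holds urokinase at the cell surface, was at 0.123, 0.159 and 3.57 CPM in RPMS, against 21.5, 62.4, 20.9 and 27.5 CPM in RPM (log2 fold change -4.68, SE 1.36, edgeR adjusted p = 0.0391). CMV_427 was highest for both genes, and in neither do the groups overlap. Serpine2 (chromosome 1, 79794197 to 79861180, minus strand), protease nexin 1, a serpin that inhibits urokinase, thrombin and plasmin and is common in neural cells, was at 167, 150.2 and 72.4 CPM in RPMS, against 2.63, 2.02, 27.5 and 4.32 CPM in RPM. Every RPMS library was above every RPM library, of which CMV_428 was highest (log2 fold change 3.84, SE 1.01, edgeR adjusted p = 0.0286). Plat, tissue plasminogen activator, was at 0.338, 0.317 and 4.93 CPM in RPMS, against 3.76, 10.4, 148 and 115 CPM in RPM, where CMV_428 and CMV_429 were high (log2 fold change -5.21, SE 1.80, edgeR adjusted p = 0.0660). Plat passed without RPM line CMV_426 (0.0496) or RPMS line CMV_252 (0.0374), within 0.000460 to 0.375 over the settings. The Plaur call was lost without any single RPM line (0.0596, 0.0812, 0.0584 and 0.0645 without CMV_426 to CMV_429), without RPMS line CMV_228 or CMV_231 (0.0870 and 0.0933), and without CMV_428 and CMV_429 together (0.0989), within 0.000147 to 0.0989. The Serpine2 call was lost without RPM line CMV_426, CMV_427 or CMV_429 (0.0537, 0.0504 and 0.0667) or RPMS line CMV_228 or CMV_231 (0.0809 and 0.0756), within 0.000185 to 0.0809.

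Of the contractile proteins used as marks of smooth muscle and activated fibroblasts, Acta2, smooth muscle actin, had no count in RPMS, against 9.25, 1.01, 5.09 and 3.77 CPM in RPM, at least 51.6-fold lower (edgeR adjusted p = 0.00827). That call was lost when CMV_428 and CMV_429 were left out together (0.0585; range over the settings 2.05e-09 to 0.0585). Tagln, transgelin, was at 0.514 to 1.33 CPM in RPMS and 0.481 to 1.57 CPM in RPM and did not pass (edgeR adjusted p = 0.778). Among markers of smooth muscle and pericytes, Mylk reached 255 CPM in CMV_428 and 263 CPM in CMV_429, against 0 to 1.02 CPM in RPMS. It was at 12.9 CPM in CMV_426 and only 1.72 CPM in CMV_427. Smtn overlapped, at 9.37 to 27.5 CPM in RPMS and 9.60 to 24.4 CPM in RPM, and Myh11 had no count in RPM. The remaining members stayed low: Col6a3 reached 6.38 CPM and Postn, periostin, 4.72 CPM, both in CMV_429, against at most 0.276 CPM and no count in RPMS.

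**Figure D3:**
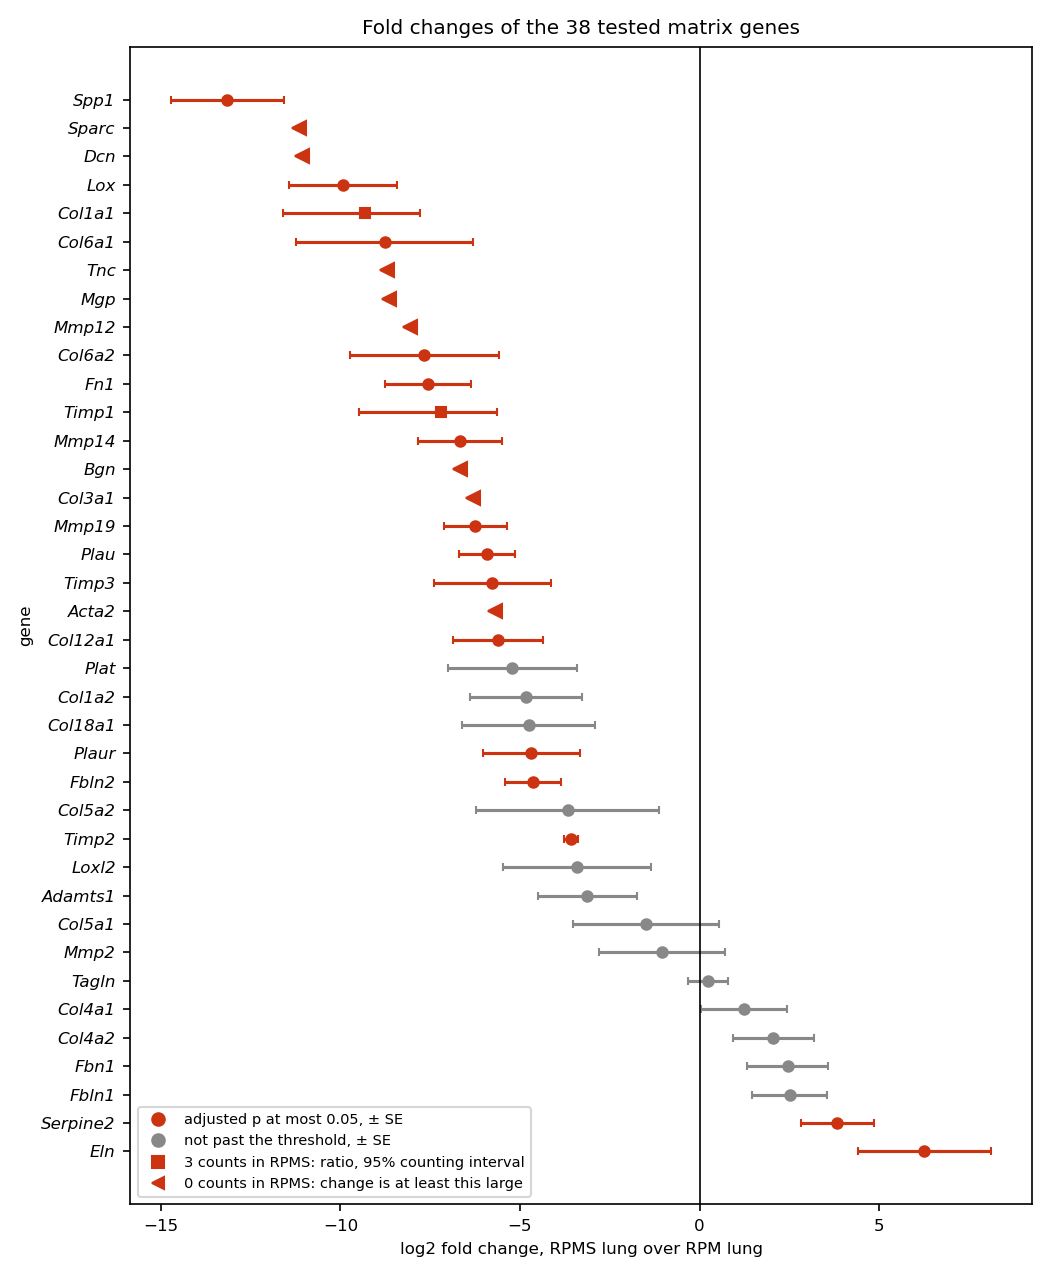
Log2 fold change, RPMS lung over RPM lung, of the 38 tested genes. Circles are edgeR estimates ± SE, squares are count ratios with 95% counting intervals for the 2 genes with 3 RPMS counts, triangles are bounds for genes without RPMS counts, and red marks an adjusted p of at most 0.05; Spp1 lies farthest to the left at -13.15 and Eln farthest to the right at 6.26.

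Per kilobase of merged exon, the members of the highest mean level in RPM were Spp1 at 2519, Timp2 at 108, Fn1 at 72.9, Sparc at 55.8 and Plau at 43.9 CPM per kb. In RPMS lung lines the order was another one: Serpine2 at 15.7, Timp2 at 8.99, Col4a2 at 8.48, Col4a1 at 5.15, Fbln1 at 4.37 and Eln at 4.12 CPM per kb. The members highest within the RPMS lines were thus a serpin, an inhibitor of metalloproteases, the collagen IV pair and elastic fibre proteins. This is a rank of levels within RPMS: against RPM, Timp2 was lower and Serpine2 and Eln were higher. Differences between neighbours in that order, such as Fbln1 and Eln, lay within the spread of the lines.

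Other matrix genes were counted in 6 further lists. Of 161 genes, 121 were tested, and of these 43 were lower in RPMS and 14 higher, with a median log2 fold change of -1.50. Enzymes of collagen folding and modification had 12 of 24 lower and none higher. P4ha1, a prolyl hydroxylase subunit, was at 32.99 ± 1.74 CPM in RPMS and 96.4 ± 17.7 CPM in RPM (SD, n = 3 and 4; edgeR adjusted p = 0.00313). Plasminogen and cathepsin genes had 11 of 15 lower and none higher, with cathepsin C (Ctsc) at 2.26 ± 1.26 CPM in RPMS and 511 ± 222 CPM in RPM (edgeR adjusted p = 0.00160). Cathepsin S (Ctss), a protease of antigen-presenting cells, was at 0.0205 ± 0.0355 CPM in RPMS and 841 ± 448 CPM in RPM (edgeR adjusted p = 0.00123). Other collagens had 4 of 20 lower and 1 higher, and other glycoproteins and proteoglycans 8 of 33 lower and 6 higher, where 15.7% of all genes were lower and 14.9% higher. Ncan, neurocan, a proteoglycan of nervous tissue, was at 69.1 ± 27.2 CPM in RPMS and 0.156 ± 0.154 CPM in RPM (log2 fold change 8.75, SE 0.95, edgeR adjusted p = 0.00221). Ecm1 was at 2.52 ± 1.56 CPM in RPMS and 46.7 ± 11.6 CPM in RPM (edgeR adjusted p = 0.00269). Other metalloproteases had 3 of 12 lower and 4 higher: Mmp15, a membrane-type protease, was at 88.6 ± 60.2 CPM in RPMS and 1.35 ± 0.821 CPM in RPM (edgeR adjusted p = 0.00406), and Mmp16, another one, was at 18.5 ± 3.06 CPM in RPMS with no count in RPM (edgeR adjusted p = 0.00213). Mmp14 and these 2 membrane-type relatives therefore moved in opposite directions. The ADAM and ADAMTS proteases had 5 of 17 lower and 3 higher, among them Adam10 at 94.2 ± 15.9 CPM in RPMS and 246 ± 15.5 CPM in RPM (log2 fold change -1.38, SE 0.17, edgeR adjusted p = 0.00289).

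Promoter windows from RefSeq (GRCm38.p6, 250 bases before to 50 after the start) were matched to 26 of the 42 genes and searched on both strands. TTCNNNGAA, the spaced palindrome that STAT dimers bind, was in none of the 26, against 8.13% of 27025 genes with a window. TATAAA was in 5 of 26 (19.2%; Adamts1, Col3a1, Postn, Spp1 and Tnc), against 14.3% of genes. TGANTCA, the AP-1 motif, was in 3 of 26 (11.5%; Plaur, Mmp12 and Col6a1), against 7.82% of genes, and did not overlap the other motifs. All 3 are among the 23 of 38 tested members that fell in RPMS. Their matches are shown with 17 bases on each side, the motif in capitals, at 69, 44 and 90 bases before a RefSeq start. Mmp12 had 2 windows, and the other one, chr9:7344147-7344446, held no AP-1 match.
Plaur, chr7:24462397-24462437, plus strand: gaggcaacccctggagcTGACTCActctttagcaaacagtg
Mmp12, chr9:7347313-7347353, plus strand: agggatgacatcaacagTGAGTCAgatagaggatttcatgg
Col6a1, chr10:76726111-76726151, minus strand: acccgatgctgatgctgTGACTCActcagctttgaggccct
These are matches of letters in one window per start, and binding was not measured.

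Between RPMS liver and RPMS lung lines, 19 of the 42 genes had enough counts to be tested and none passed (lowest edgeR adjusted p = 0.945). None of all 14441 genes passed either, 0%. At an unadjusted p under 0.05 there were 2 of the 19, Eln and Adamts1, against 4.5% of all genes. DESeq2 called 52 genes, none of them a member, but gave no adjusted p for 4 members. The median log2 fold change was -0.05 over the 19, and -0.02 over all genes. The other 23 genes did not pass the expression filter, among them Sparc, Dcn and Col6a1, which were high in 1 or 2 libraries.

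Most of what the 42 genes showed in set 2 sat in a pair of libraries, one of each group. Line CMV_341 from the liver had 20 of the 42 at 10 CPM or more, and CMV_252 from the lung had 14, against 4 to 6 in the other liver lines and 3 to 7 in the other lung lines. CMV_341 was the highest of all 8 libraries for 19 genes and CMV_252 for 14. The members summed to 1042 CPM in CMV_341 and 1573 CPM in CMV_252, against 140 to 427.6 CPM in the remaining 6.

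In line CMV_341, proteoglycans, collagen VI and several glycoproteins were high. Dcn was at 37.2 CPM in it, against 0 to 0.0542 CPM in the other liver lines and 0 to 0.768 CPM in the lung lines. Bgn was at 31.2, Tnc at 26.2, Acta2 at 17.2, Mgp at 10.96 and Col3a1 at 14.2 CPM, against at most 0.292, 0.487, 0.109, 0.109 and 0.584 CPM in the other liver lines. Lung lines stayed at or below 0.154, 0.154, 0.230, 0.461 and 0.109 CPM for the same 5 genes. Col6a1 at 34.9 CPM, Col6a2 at 16.6 CPM and Postn at 8.66 CPM were also highest there. So was Col1a2, at 5.51 CPM, against at most 0.292 CPM in the other liver lines and 0.163 CPM in the lung lines. Col1a1 was highest in CMV_341 as well, at 4.81 CPM, but reached 3.07 CPM in CMV_252. Col5a2 did not follow: it was at 2.30 CPM in CMV_341, below 6.22 CPM in CMV_343 and 5.16 CPM in CMV_344. For Col3a1 the 4 liver lines, at 0.213 to 14.2 CPM, lay above the 4 lung lines, at 0 to 0.109 CPM, but the gene did not pass the expression filter and was not tested. Of general fibroblast markers, Thy1 was at 35.3 CPM in CMV_341, but also at 10.1 and 15.9 CPM in CMV_343 and CMV_344. Pdgfrb was at 3.96 CPM in CMV_341, with 4.10 and 2.63 CPM in CMV_343 and CMV_344. Pdgfra was at 0.588 CPM in CMV_341, below 7.10 CPM in CMV_344, with Dpt at 0.0535 CPM and Tcf21 at 0 in CMV_341. The summed fibroblast and stellate cell list was 58.5 CPM in CMV_341, against 10.5 to 81.7 CPM in the other liver lines and 9.82 to 39.0 CPM in the lung lines. Summed macrophage markers were 4.66 to 13.0 CPM in the liver and 8.86 to 35.0 CPM in the lung lines. Whether other cells contributed to the CMV_341 library was not tested.

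Line CMV_252 carried another set. Fn1 was at 449 CPM in it, against 2.23 to 3.47 CPM in the other lung lines, and at 2.66, 100.2, 5.21 and 2.43 CPM in liver lines CMV_273, CMV_341, CMV_343 and CMV_344 (log2 fold change, liver over lung, -2.05, SE 1.96, edgeR adjusted p = 0.946). Col5a1 was at 322 CPM in CMV_252, against 0 to 2.23 CPM in the other lung lines, with 0.325, 6.15, 1.81 and 0.584 CPM in the liver (log2 fold change -5.17, SE 2.43, edgeR adjusted p = 0.945). Adamts1 was at 25.3 CPM in CMV_252, with 0.481 to 0.868 CPM in the liver and 0.458 to 0.790 CPM in the other lung lines (log2 fold change -3.47, SE 1.37, unadjusted p = 0.0329 in edgeR, adjusted p = 0.945). Without CMV_252 the log2 fold changes were 3.19 for Fn1, 1.45 for Col5a1 and -0.13 for Adamts1, so that the first pair changed sign. Plaur at 26.8, Loxl2 at 26.2, Col18a1 at 21.0 and Timp3 at 16.3 CPM were also highest in CMV_252, while Dcn, Bgn, Tnc and Acta2 stayed at or below 0.768 CPM. Sparc and Mmp14 were high in both lines: Sparc was at 80.5 CPM in CMV_341 and 200.2 CPM in CMV_252, against at most 0.585 CPM elsewhere, and Mmp14 at 33.1 and 32.5 CPM, against at most 3.02 CPM.

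**Figure D4:**
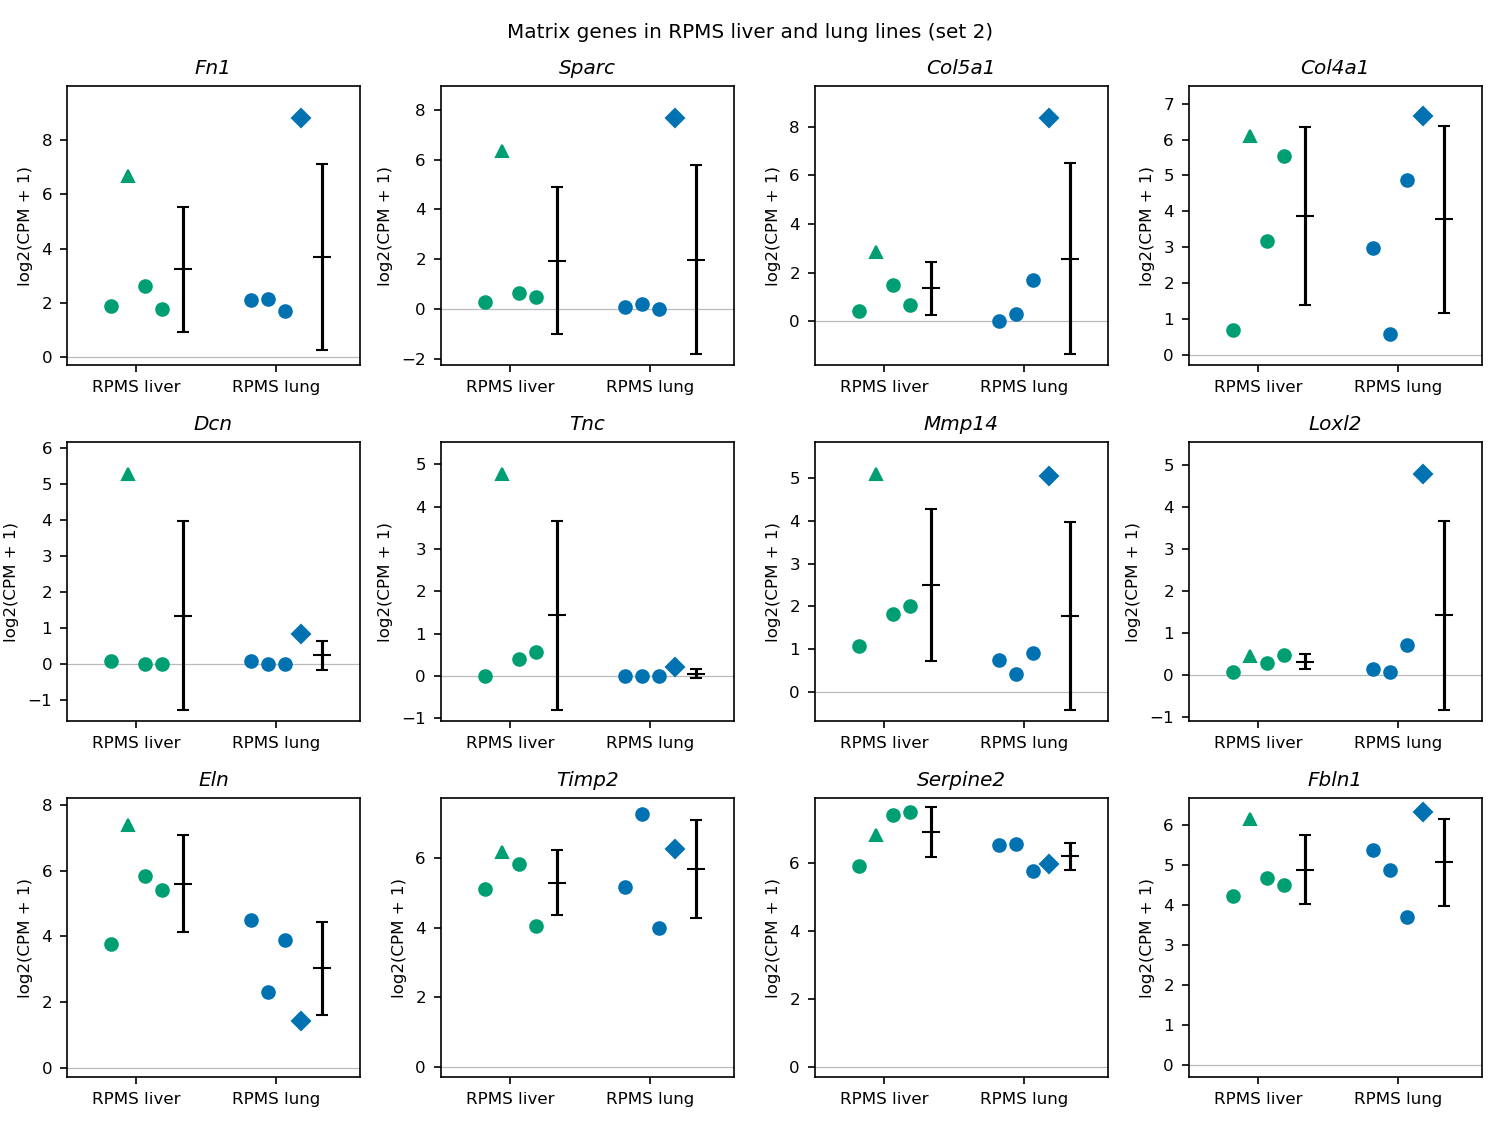
Levels as log2(CPM + 1) of 12 members in the 4 RPMS liver and 4 RPMS lung lines of set 2, with line CMV_341 as a triangle, line CMV_252 as a diamond and mean ± SD bars. For Fn1 and Sparc the triangle and the diamond lie apart from the 6 other lines, at 100.2 and 449 CPM for Fn1, while Serpine2 runs from 53.1 to 181 CPM over the 8 lines.

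Of the genes with the highest levels in RPMS lung lines of set 1, Serpine2, Timp2 and Fbln1 were above 10 CPM in every set 2 library, while Eln, Col4a1 and Col4a2 varied more. Serpine2 was at 59.3, 112, 169 and 181 CPM in liver lines CMV_273, CMV_341, CMV_343 and CMV_344, against 91.0, 92.2, 53.1 and 61.0 CPM in lung lines CMV_228, CMV_231, CMV_232 and CMV_252 (log2 fold change 0.81, SE 0.36, edgeR adjusted p = 0.945). Eln was at 12.7, 167, 56.5 and 41.6 CPM in the liver, against 21.7, 3.96, 13.7 and 1.69 CPM in the lung lines (log2 fold change 2.76, SE 0.96, unadjusted p = 0.0190 in edgeR, adjusted p = 0.945). For Eln 3 of 4 liver lines were above all lung lines, and CMV_273 lay among them. Fbln1 was at 17.6, 69.6, 24.6 and 21.4 CPM in the liver, against 40.1, 28.3, 12.0 and 78.2 CPM in the lung lines (log2 fold change -0.25, SE 0.62, edgeR adjusted p = 0.981). Timp2 was at 34.1, 71.2, 56.2 and 15.6 CPM in the liver, against 35.5, 155, 15.1 and 75.7 CPM in the lung lines (log2 fold change -0.67, SE 0.70, edgeR adjusted p = 0.950). The groups overlap for all 4 genes. Col4a1 was at 0.597, 67.1, 7.93 and 46.0 CPM in the liver, against 6.94, 0.489, 28.5 and 99.96 CPM in the lung lines (log2 fold change -0.16, SE 1.47, edgeR adjusted p = 0.995). Col4a2 was at 0.108, 49.0, 23.1 and 82.0 CPM in the liver, against 11.1, 0.597, 44.5 and 100.3 CPM in the lung lines (log2 fold change -0.02, SE 1.49, edgeR adjusted p = 0.999). Both chains were low in the same lines, CMV_273 and CMV_231. Fbn1 ranged over 0.651 to 19.3 CPM in the liver and 0.597 to 17.2 CPM in the lung lines (edgeR adjusted p = 0.981). Col12a1 ranged over 0.163 to 17.3 CPM in the liver and 0.113 to 8.84 CPM in the lung lines (edgeR adjusted p = 0.964). Among the low genes, Spp1, the highest of all members in RPM, was at 0 to 3.26 CPM in the liver and 0 to 0.113 CPM in the lung lines, and Plau at 0.214 to 1.95 CPM and 0.343 to 1.46 CPM.

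Lines CMV_228, CMV_231 and CMV_252 have a library in each table, and the values are set side by side without a test, since the tables were scaled separately. On the log2(CPM + 1) scale, 1 of the 42 genes was more than 4-fold apart between the libraries of CMV_228, 6 in those of CMV_231 and 13 in those of CMV_252. For CMV_228 that gene was Col4a2, at 11.1 CPM in set 2 and 71.2 CPM in set 1. For CMV_231, Col4a1, Col4a2, Col18a1, Fbn1 and Eln were lower and Timp2 higher in set 2, with Fbn1 at 0.597 CPM in set 2 and 35.2 CPM in set 1. For CMV_252, 11 genes were higher in set 2 and 2, Fbn1 and Mmp2, were lower. Fn1 in CMV_252 was at 449 CPM in set 2 and 11.4 CPM in set 1, Sparc at 200.2 CPM and no count, and Mmp2 at 0.230 CPM and 22.7 CPM. The neuroendocrine sum of the same line was 177 CPM in set 2 and 1669 CPM in set 1. Serpine2 was within the 4-fold bound in all 3 lines, at 61.0 to 92.2 CPM in set 2 and 72.4 to 167 CPM in set 1.

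**Figure D5:**
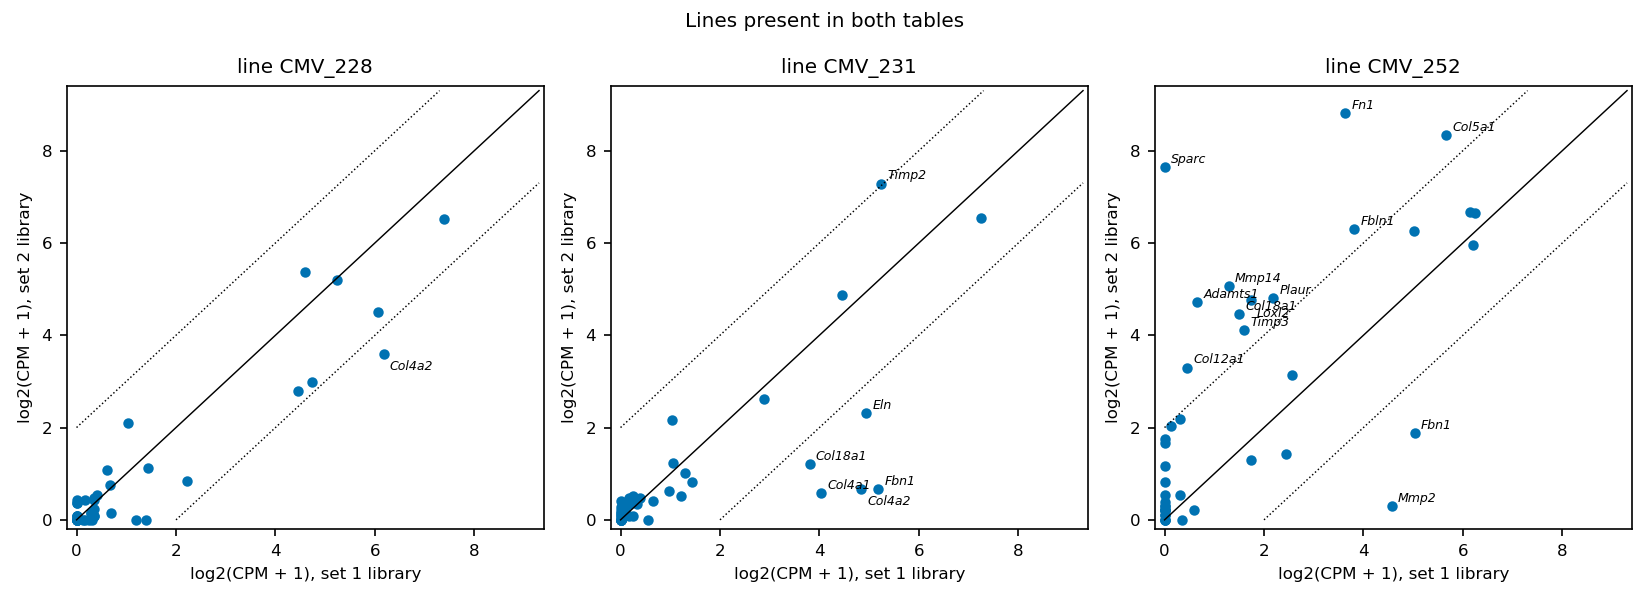
Level of each of the 42 genes in the set 2 library (vertical axis) against the set 1 library (horizontal axis) of the same line, both as log2(CPM + 1); the solid line marks equal values and dotted lines a 4-fold difference. Named genes lie outside the dotted lines: 1 for CMV_228, 6 for CMV_231 and 13 for CMV_252.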

How the data were processed

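Per the labels' protocols, cells were cultured in low-serum medium and their total RNA went into stranded libraries. HISAT2, StringTie and the build GRCm38 are named in the submitters' processing notes; versions and the strand setting are not given in the sources used here. The deposited values are raw read counts by gene in 2 tables, whole numbers without normalization, whose columns were matched to the 15 samples by label. In set 2, 1832 records without a gene name (0.0569 to 0.0799% of counts) were left out.

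Each table was fitted on its own with edgeR 4.0.16 (R 4.3.3), using its default expression filter, TMM factors and the quasi-likelihood test, which is two-sided. The p-values were adjusted by Benjamini-Hochberg over all genes tested, and calls were made at 0.05. CPM uses TMM-scaled library sizes. The SE of a log2 fold change was taken from the F statistic. A fold against a group without counts is a bound from a floor of 3 counts per library, and counting intervals are exact at 95%; both cover counting error only. Scripts were tested on simulated data. The members and gene lists were chosen with earlier results of these data known. Per-library values were given for members past the threshold or reaching 10 CPM in a library, and at most 3 genes of each further list, by smallest adjusted p, could be named. Gene positions and exon lengths came from GENCODE for GRCm38, promoters from RefSeq; 22 of the 42 genes overlap another annotated gene, so reads of overlapping genes may be shared.

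Alternatives were DESeq2 1.42.0, limma-voom (limma 3.58.1), relative log expression factors, a robust fit, leaving out each library, and filtering at 10 counts or not at all. Leaving out CMV_428 with CMV_429, or CMV_252 with CMV_341, was chosen after seeing the data.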

Additional observations from a re-analysis of the deposited data

Results flagged for a closer look

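In groups of 4 libraries, 68 sets of values (1 gene in 1 group) in which a library reached 10 CPM were compared, and in 26 of them 1 library lay far above the other 3 by Dixon's criterion. Chance flags about 1 in 20 groups of unselected, normally spread values. These sets were chosen for holding a high library and share libraries, so the number flagged is a description and not set against that rate. Of the 26, 11 were in liver line CMV_341 and 8 in lung line CMV_252 of set 2.

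In RPMS liver line CMV_341, the high values were 14.2 CPM for Col3a1, 34.9 for Col6a1, 100.2 for Fn1, 80.5 for Sparc, 10.96 for Mgp, 69.6 for Fbln1, 26.2 for Tnc, 37.2 for Dcn, 31.2 for Bgn, 33.1 for Mmp14 and 17.2 CPM for Acta2. In RPMS lung line CMV_252 of set 2, the high values were 322 CPM for Col5a1, 21.0 for Col18a1, 449 for Fn1, 200.2 for Sparc, 26.2 for Loxl2, 32.5 for Mmp14, 25.3 for Adamts1 and 26.8 CPM for Plaur. Fn1, Sparc and Mmp14 are in both sets of high genes.

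Among RPM lung lines of set 1, CMV_427 stood out with 467 CPM of Col18a1, 129 of Tnc, 11872 of Spp1 and 62.4 CPM of Plaur. CMV_428 stood out with 35.0 CPM of Loxl2 and 27.5 CPM of Serpine2, and CMV_426 with 24.1 CPM of Col3a1.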

How the results depend on the processing

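Of the 42 genes, 25 passed between RPMS and RPM lung lines, 18 to 30 under the other tools, scalings and filters. Leaving out 1 library gave 13 to 23, with 13 without RPMS line CMV_228 and 14 without CMV_231, and no member passed as higher without either of these or without RPM line CMV_427 or CMV_429. Members that failed the filter in a fit could not pass in it. Without CMV_428 and CMV_429 together there were 16, 13 lower and 3 higher, and Mmp2 turned to a log2 fold change of 1.04. No other member reversed in this comparison. Over all genes, leaving out 1 library or those 2 gave 2896 to 7076 calls, against 5403.

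Between RPMS liver and lung lines, no member passed under any setting tried, although DESeq2 gave no adjusted p for 4 members. Over all genes there were 52 calls with DESeq2, 2 without a filter and 0 under the others. Signs turned as follows, in log2 fold change: with limma-voom Col5a1 was at 0.024, Col4a1 at 0.17 and Timp3 at 0.70, and without CMV_252 and CMV_341 together Col5a1 was at 0.19, Col4a1 at 0.63, Col4a2 at 0.93, Col18a1 at 0.63 and Fn1 at 0.21. Leaving out 1 library, log2 fold changes ran from -6.44 to 1.45 for Col5a1, -0.91 to 1.35 for Col4a1, -0.70 to 1.06 for Col4a2, -0.63 to 4.82 for Col12a1, -1.68 to 1.79 for Col18a1, -5.04 to 3.19 for Fn1, -0.90 to 0.31 for Fbln1, -0.25 to 1.55 for Fbn1, -1.95 to 3.98 for Mmp14, -1.01 to 0.065 for Timp2 and -2.20 to 0.28 for Timp3. The cause was not tested. No paired analysis was possible because the groups compared within a table share no line number. Depth limits the low values: in set 2, 3 counts equal up to 0.292 CPM. The 23 genes not tested there failed the filter, some, such as Sparc, being high in only 1 or 2 libraries.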
